A study of Macaca mulatta and Mus musculus with 5 samples.

Results

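The surrogate light chain genes were followed across B cells of mouse meninges, rhesus macaque meninges and rhesus macaque spleen. The members were taken by gene symbol: VPREB1 and VPREB3 in the macaque tables, and Vpreb1, Vpreb2, Vpreb3 and Igll1 in the mouse table. They are 2 of the 14949 genes listed in the macaque tables together and 4 of the 31017 listed in the mouse table, or 6 of 45966 in all. IGLL1 was not listed in the macaque tables.

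The surrogate light chain is a pair of small proteins, VpreB and λ5, that stand in for the immunoglobulin light chain while a B cell precursor has rearranged only its heavy chain gene. VpreB (VPREB1, and in mouse also the near-identical Vpreb2) and λ5 (Igll1) pair with the µ heavy chain (IGHM) and the signalling chains CD79A and CD79B to form the pre-B cell receptor, which triggers proliferation of pre-B cells and is then silenced. VPREB3 encodes a related protein that stays in the endoplasmic reticulum, binds µ heavy chains there, and is also known from germinal centre B cells. The members were read beside 5 genes that mark stages of B cell life. DNTT adds untemplated nucleotides at heavy chain joints in pro-B cells, RAG1 cuts DNA for immunoglobulin rearrangement, MKI67 marks cycling cells, MS4A1 encodes the CD20 protein of mature B cells, and RGS13 marks germinal centre B cells.

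The study profiled single cells with 10x 3′-end chemistry, in which each unique molecular identifier (UMI) counts 1 captured RNA molecule. The macaque cells came from female Chinese rhesus macaques aged 4-8 years, in 2 channels of meninges and 2 channels of spleen, and the mouse cells came from meninges of male C57BL/6 mice aged 2, 21 and 48 days that were labelled with hashtag antibodies and pooled in 1 library. The hashtag assignment was not used here, so the mouse ages cannot be told apart, and the labels do not say whether the macaque channels hold different animals. The sort is written as CD45–CD11b– for mouse and CD45–CD11b–CD3– for macaque, with 30000 mouse and 8000 macaque cells loaded per channel. PTPRC, the gene of CD45, had a UMI in 85.8 and 86.9% of cells of the meninges channels, 87.9 and 85.1% of the spleen channels and 82.1% of the mouse library, so the cells as measured were mostly PTPRC-positive.

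After a filter on detected genes and mitochondrial UMIs, the meninges channels held 4029 and 4269 cells (medians of 4078 and 4024 UMIs), the spleen channels 5839 and 6783 (2404 and 2668) and the mouse library 13267 (6394). Any pair of libraries shared at most 28 barcodes, and the largest share of the smaller library was 0.417%. Cells with at least 2 UMIs over 11 B cell genes, and more than over any other marker list, were taken as B cells: 1999 and 2092 in the meninges channels, 5077 and 5821 in the spleen channels and 9976 in mouse. Cells with at least 3 UMIs of NK cell genes served as background: 1427 and 1517 in meninges, 422 and 545 in spleen and 1630 in mouse. CD3 UMIs were present in most of these, including in macaque, where the sort is written as CD3–: the numbers without any CD3 UMI were 263 and 314 in meninges, 177 and 186 in spleen and 211 in mouse. Each B cell was put in the first bin that held of DNTT-positive, RAG1-positive (cycling, MS4A1-negative or MS4A1-positive), RGS13-positive (cycling or non-cycling), MKI67-positive (MS4A1-negative or MS4A1-positive), MS4A1-only and none of the 5. A gene counted as present from 1 UMI. RAG1 and DNTT were not listed in the spleen tables, so the spleen has no such bins. Levels are CPM, the UMIs of a gene as a fraction of all UMIs of the summed cells, scaled to the same total in every bin. Intervals are exact 95% Poisson or binomial limits and cover counting error only. The macaque p-values between tissues measure only the spread between channels, which may be technical. Those between bins measure how differences between bins vary from channel to channel, pooled over the bins of the fit, which may also be technical. Mouse is 1 library and carries no test. With 2 channels per group, full separation of channels can arise without a difference. The share of all genes that separate so was not counted.

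Mouse Vpreb1 and Vpreb2 are so alike that their sequences bear on every value of the pair. Vpreb1 lies at chr16:16868403-16870843 on the minus strand and Vpreb2 at chr16:17980428-17981273 on the plus strand of GRCm38, in the GENCODE M21 annotation; both are protein-coding with 2 exons and a coding sequence of 426 bases. The coding sequences match at 417 of 426 bases (97.9%). Counted from the first coding base, with the Vpreb1 base first, the differences are T37C, T39C, T83C, A280G, T345C, C348T, G366C, G378A and G387A. The stretch of 120 coding bases from 268 to 387 holds 6 of the 9, shown here in capitals, 5′ to 3′:
Vpreb1: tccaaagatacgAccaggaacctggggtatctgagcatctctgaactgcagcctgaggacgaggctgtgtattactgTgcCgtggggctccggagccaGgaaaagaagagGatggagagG
Vpreb2: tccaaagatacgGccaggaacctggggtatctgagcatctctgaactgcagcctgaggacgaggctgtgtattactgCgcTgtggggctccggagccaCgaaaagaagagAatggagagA
Over the last 400 bases of the transcripts, where 3′-end reads fall, the pair differed at 13 positions. No window of 90 bases was shared exactly, but the fewest differences in a window were 1, the median 3 and the most 6, so the split of reads between Vpreb1 and Vpreb2 is uncertain. Igll1 (chr16:16860671-16863985, minus strand, 3 exons) lies beside Vpreb1 and has a coding sequence of 627 bases. Vpreb3 (chr10:75943057-75949657, plus strand, 2 exons) has 390. Apart from the Vpreb1 and Vpreb2 pair, the coding sequences matched each other at 38.8 to 45.4% of aligned bases.

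In macaque meninges VPREB1 was highest in the DNTT bin, with 878 CPM (735 to 1040) in channel 1 and 794 CPM (693 to 906) in channel 2. The DNTT bin rested on 133 and 222 UMIs of VPREB1 in 19 and 30 cells, of which 94.7 and 100% had at least 1 UMI and 52.6 and 76.7% at least 5. RAG1 cycling cells held 419 and 336 CPM in 9 and 6 cells, and RAG1 MS4A1-negative cells 293 and 302 CPM in 144 and 126 cells. The RAG1 MS4A1-negative cells gave 124 and 104 UMIs, with 45.1 and 45.2% of cells positive and 2.78 and 1.59% of cells at 5 UMIs or more. In RAG1 MS4A1-positive cells, which carry both an early and a mature mark, VPREB1 stood at 168 and 197 CPM on 7 and 9 UMIs in 11 and 14 cells.

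MKI67 MS4A1-negative cells, which had neither DNTT nor RAG1 UMIs, held 296 and 186 CPM of VPREB1 on 217 and 132 UMIs. The B cells with none of the 5 genes held 155 and 179 CPM. Plasma cell genes (JCHAIN, MZB1, XBP1, SDC1, PRDM1 and TNFRSF17 summed) stood at 4862 and 3697 CPM in the MKI67 MS4A1-negative bin and at 7703 and 15808 CPM in the bin with none of the 5, against 288 and 404 CPM in MS4A1-only cells; their part in the VPREB1 levels was not tested. MKI67 MS4A1-positive cells had 48.8 and 29.6 CPM of VPREB1.

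At the mature end, MS4A1-only cells of meninges had 15.1 and 10.4 CPM of VPREB1 on 103 and 76 UMIs in 1402 and 1525 cells. The RGS13 bins had 13.3 and 11.2 CPM (cycling) and 16.3 and 17.0 CPM (non-cycling), on 2 to 4 UMIs per channel. These 3 bins were close together and far under the early bins in both channels. The NK background was lower again, 2.69 and 1.02 CPM on 15 and 6 UMIs that lay in 3 cells of each channel, and 3.76 and 0 CPM in NK cells without CD3 UMIs, where 0 allows up to 2.54 CPM.

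**Figure D1:**
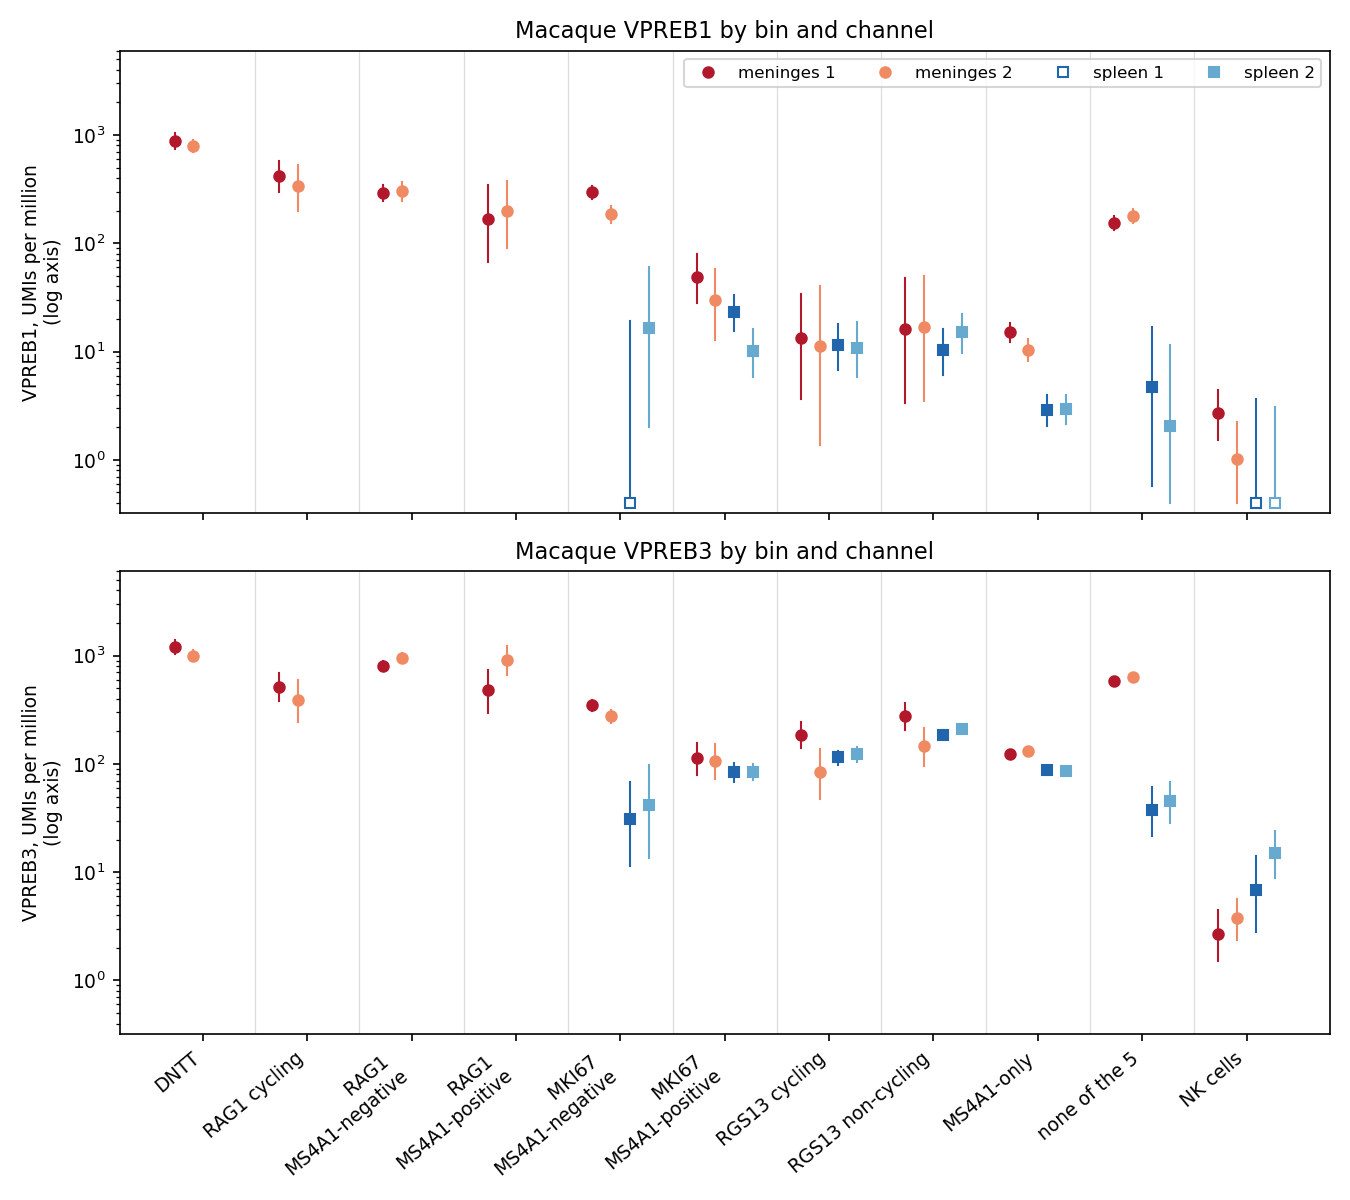
Levels of VPREB1 and VPREB3 (CPM, log axis) in each bin of B cells and in the NK background, one point per macaque channel, with exact 95% Poisson intervals; open symbols at the lower edge stand for 0 UMIs. VPREB1 sits at 794 to 878 CPM in DNTT cells of meninges and at 10.4 to 15.1 CPM in MS4A1-only cells, while VPREB3 stays at 86.6 CPM or above in MS4A1-only cells of every channel.

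Against MS4A1-only cells of the same channels, VPREB1 was higher in the DNTT bin by a log2 fold change of 5.97 (SE 0.19; adjusted p = 8.3e-24, edgeR quasi-likelihood test, adjusted by Benjamini and Hochberg's method). Of the 7780 genes in that fit, 14% were called higher. The fit took bins of at least 10 cells, a limit lowered after the data were seen because 1 channel had 19 DNTT cells. VPREB1 was also higher in RAG1 MS4A1-negative cells, by 4.27 (SE 0.21; edgeR adjusted p = 5.4e-16), in a comparison that called 15.3% of 8693 genes higher. In MKI67 MS4A1-negative cells it was higher by 4.12 (SE 0.19; edgeR adjusted p = 1.3e-17), where 23.9% of genes were called higher. In RAG1 MS4A1-positive cells it was higher by 3.34 (SE 0.59; edgeR adjusted p = 0.00016), where 1.67% were called higher and the median of all genes was -0.38. The 2 channels of each of these bins lay above both MS4A1-only channels, a separation that was not counted over all genes. All of these comparisons share the MS4A1-only cells.

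Between the early bins, VPREB1 fell by 1.66 on the log2 scale in RAG1 MS4A1-negative cells relative to DNTT cells (SE 0.18; edgeR adjusted p = 6.2e-09), with 11.9% of genes called lower. The levels by channel were 293 and 302 CPM in RAG1 MS4A1-negative cells against 878 and 794 CPM in DNTT cells. Cycling cells within the DNTT bin held less VPREB1, 775 and 565 CPM in 9 and 10 MKI67-positive cells against 1098 and 1023 CPM in 10 and 20 MKI67-negative cells, a difference that was not tested. The RGS13 non-cycling bin of meninges differed from MS4A1-only cells by 0.28 (SE 0.75; edgeR adjusted p = 0.87), a comparison that called 14% of genes and in which 3 UMIs per channel set the precision.

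VPREB3 was above the NK background in every B cell bin of both macaque meninges channels. It stood at 1208 CPM (1039 to 1396) and 998 CPM (884 to 1122) in DNTT cells, on 183 and 279 UMIs, and at 798 and 950 CPM in RAG1 MS4A1-negative cells, on 338 and 327 UMIs. VPREB3 had a UMI in 75.7 and 82.5% of RAG1 MS4A1-negative cells. RAG1 cycling cells held 518 and 392 CPM, RAG1 MS4A1-positive cells 481 and 917 CPM on 20 and 42 UMIs, and cells with none of the 5 genes 586 and 632 CPM. The levels in MKI67 MS4A1-negative cells were 347 and 276 CPM and in MKI67 MS4A1-positive cells 113 and 107 CPM.

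MS4A1-only cells of meninges still held 125 and 131 CPM of VPREB3, on 850 and 957 UMIs, against an NK background of 2.69 and 3.75 CPM. The RGS13 non-cycling cells gave 277 and 147 CPM on 51 and 26 UMIs and RGS13 cycling cells 186 and 84.0 CPM, so the 2 channels lay far apart there. Plasma cell genes also differed between these channels of RGS13 non-cycling cells, at 10136 and 1224 CPM, and their part was not tested.

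VPREB3 was higher than in MS4A1-only cells by a log2 fold change of 3.02 in DNTT cells (SE 0.19; edgeR adjusted p = 1.7e-15) and by 2.50 in RAG1 MS4A1-negative cells (SE 0.14; edgeR adjusted p = 4.8e-15). It was higher by 1.17 in MKI67 MS4A1-negative cells (SE 0.14; edgeR adjusted p = 4.3e-08). The rise of 1.96 in RAG1 MS4A1-positive cells (SE 0.29; edgeR adjusted p = 1.4e-05) was 1.36 without meninges channel 2, where the edgeR adjusted p was 0.085. RAG1 MS4A1-negative and DNTT cells differed by -0.48 (SE 0.19; edgeR adjusted p = 0.06), which was not past the threshold, though it was without meninges channel 2 (-0.76); whether this step differs from that of VPREB1 was not tested. The RGS13 non-cycling cells of meninges differed from MS4A1-only cells by 0.63 (SE 0.22; edgeR adjusted p = 0.052), and this value was -0.068 without channel 1 and 1.08 without channel 2.

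In macaque spleen VPREB1 was near the limit of what the channels could resolve. MS4A1-only cells of spleen held 2.88 and 2.94 CPM, on 38 and 43 UMIs in 4089 and 4774 cells, and spleen NK cells had 0 UMIs in both channels, which allows up to 2.96 and 2.51 CPM by a limit of 3 counts. The MS4A1-only level of spleen was thus close to what the NK cells allow. The RGS13 bins, the spleen's germinal centre cells by their marker, were higher: 10.3 and 15.0 CPM in non-cycling cells (18 and 25 UMIs) and 11.4 and 10.9 CPM in cycling cells (18 and 13 UMIs). MKI67 MS4A1-positive cells without RGS13 had 23.2 and 10.0 CPM on 29 and 17 UMIs.

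Relative to MS4A1-only cells of spleen, VPREB1 rose by a log2 fold change of 2.04 in RGS13 non-cycling cells (SE 0.37; edgeR adjusted p = 5.1e-05), where 18.8% of genes were called higher. It rose by 1.87 in RGS13 cycling cells (SE 0.42; edgeR adjusted p = 0.0004), where 26.9% were called higher; with bins cut at 2 UMIs the cycling value was 1.30 and not past the threshold. The channels did not overlap in either comparison, a separation that was not counted over all genes. VPREB3 stood at 185 and 211 CPM in RGS13 non-cycling cells of spleen, on 323 and 351 UMIs, against 88.4 and 86.6 CPM in MS4A1-only cells, a rise of 1.12 (SE 0.14; edgeR adjusted p = 5.5e-08). The NK background of VPREB3 in the spleen channels was 6.92 to 15.0 CPM, higher than in meninges. In RGS13 cycling cells VPREB3 had 115 and 123 CPM and rose by 0.40 (SE 0.15; edgeR adjusted p = 0.023). That smaller rise was not past the threshold without spleen channel 1 (0.43, edgeR adjusted p = 0.24) or without spleen channel 2 (0.32, edgeR adjusted p = 0.35).

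Median depth moved with these bins: RGS13 non-cycling cells of spleen had medians of 6032 and 4816 UMIs per cell and cycling cells 9359 and 7187, against 2734 in MS4A1-only cells of both channels. CPM divides by that depth, and its part in the VPREB1 and VPREB3 differences was not tested. All 8 germinal centre markers were called higher in the non-cycling bin, RGS13 itself by construction. The rise over MS4A1-only cells differed between meninges and spleen by -1.76 for VPREB1 (SE 0.72; edgeR adjusted p = 0.35) and by -0.50 for VPREB3 (SE 0.25; edgeR adjusted p = 0.49) in a test of the difference itself, which called 1.08% of genes.

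**Figure D2:**
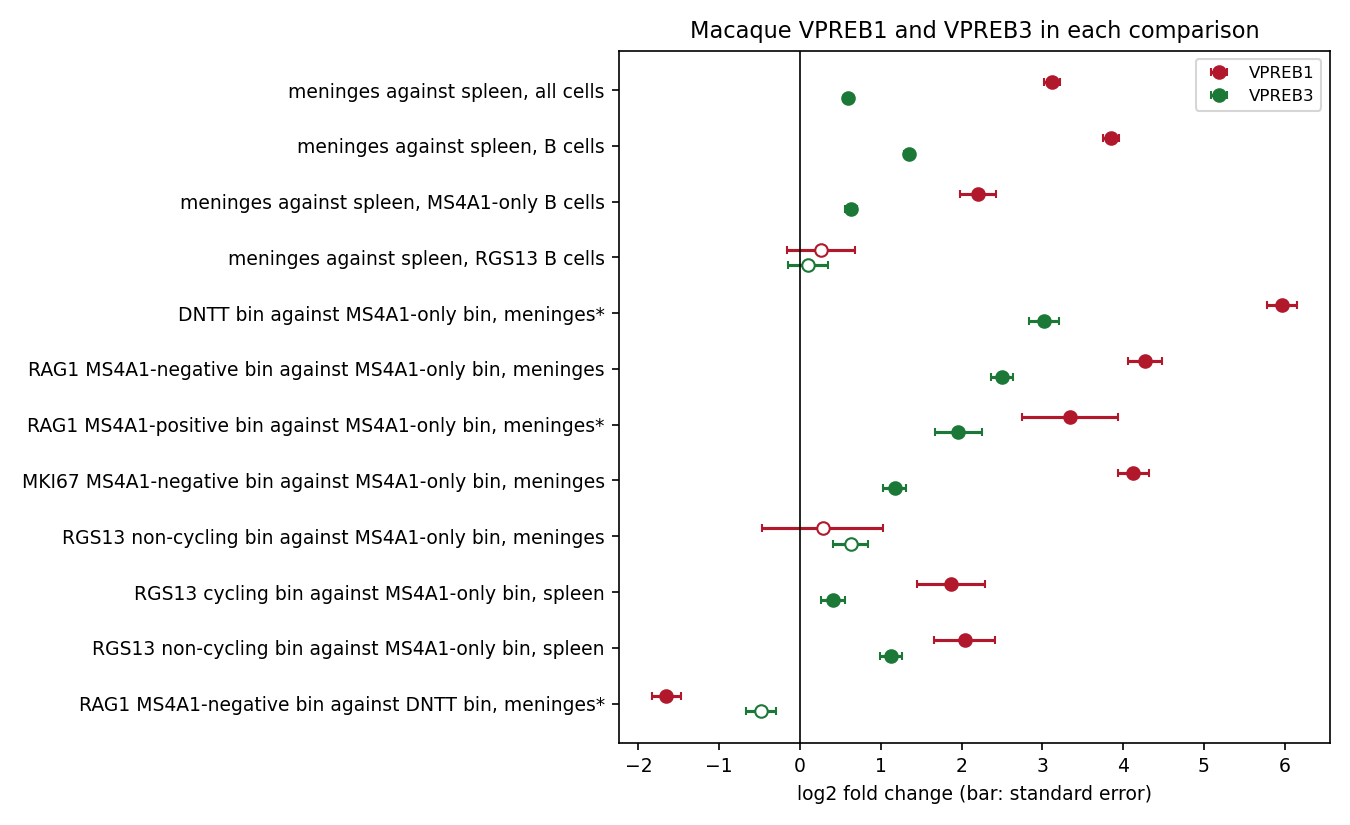
Log2 fold changes of VPREB1 and VPREB3 in each macaque comparison with bars of 1 SE; filled symbols have an adjusted p under 0.05, open ones do not, and an asterisk marks the fit with bins of at least 10 cells. VPREB1 lies at 5.97 in DNTT cells and at 4.27 in RAG1 MS4A1-negative cells over MS4A1-only cells, above VPREB3 at 3.02 and 2.50.

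Over all B cells, meninges held 80.0 and 72.0 CPM of VPREB1, against 5.72 and 5.10 CPM in spleen, and 243 and 241 CPM of VPREB3, against 97.7 CPM in both spleen channels. The channels of the tissues did not overlap for either gene, a separation that was not counted over all genes. VPREB1 was higher in meninges by a log2 fold change of 3.85 (SE 0.10; edgeR adjusted p = 3.2e-09) and VPREB3 by 1.35 (SE 0.06; edgeR adjusted p = 1.4e-07), in a comparison where 24.5% of 11556 genes were called higher. In such sums more cells that express a gene and more RNA per cell cannot be told apart. DNTT and RAG1 were not listed in the spleen tables, which leaves at most 2 cells with a UMI of each per channel.

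Within MS4A1-only cells the tissue difference was smaller in size. VPREB1 had 15.1 and 10.4 CPM in meninges against 2.88 and 2.94 CPM in spleen, a log2 fold change of 2.20 (SE 0.22; edgeR adjusted p = 1.9e-06). VPREB3 had 125 and 131 CPM in meninges against 88.4 and 86.6 CPM in spleen, a log2 fold change of 0.63 (SE 0.08; edgeR adjusted p = 1.1e-05). Here 21.5% of 10844 genes were called higher in meninges. The meninges channels lay above both spleen channels for both genes, a separation that was not counted over all genes. Median depth was 4654 and 4686 UMIs in meninges against 2734 in both spleen channels.

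RGS13 B cells, cycling and non-cycling together, did not differ past the threshold between the tissues for either gene. In meninges VPREB1 rested on 4 and 2 UMIs in cycling and 3 and 3 UMIs in non-cycling cells, so a difference could be missed. VPREB1 stood at 14.4 and 14.1 CPM in meninges (44 and 43 cells) against 10.8 and 13.3 CPM in spleen (444 and 484 cells), and VPREB3 at 221 and 115 CPM in meninges against 152 and 174 CPM in spleen. The fold changes were 0.26 for VPREB1 (SE 0.42; edgeR adjusted p = 0.88) and 0.10 for VPREB3 (SE 0.25; edgeR adjusted p = 0.93), in a comparison that called 0.535% of 8044 genes. The VPREB3 channels overlapped between tissues, and its sign turned (-0.56) without meninges channel 1 and (-0.02) without spleen channel 1. MKI67 MS4A1-negative cells were not compared by a test: VPREB1 had 296 and 186 CPM in meninges against 0 and 16.6 CPM in spleen, where 0 allows up to 15.5 CPM, and plasma cell genes had 4862 and 3697 CPM in meninges against 7245 and 16712 CPM in spleen.

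VPREB1 UMIs were spread over several bins of meninges. The DNTT bin held 16.0 and 29.4% of them, MKI67 MS4A1-negative cells 26.2 and 17.5%, cells with none of the 5 genes 20.1 and 22.5%, RAG1 MS4A1-negative cells 15.0 and 13.8% and MS4A1-only cells 12.4 and 10.1%. In spleen the largest share lay in MS4A1-only cells, 36.2 and 42.2%, with 17.1 and 24.5% in RGS13 non-cycling cells. VPREB3 UMIs lay in MS4A1-only cells for 34.0 and 37.7% in meninges and for 64.2 and 64.3% in spleen.

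In mouse meninges the VpreB genes and Igll1 were highest in Dntt cells, as a set of 1176 cells with a median of 7611.5 UMIs. Vpreb1 stood at 2220 CPM (2195 to 2245), Vpreb2 at 218 CPM (210 to 226), Igll1 at 1392 CPM (1372 to 1412) and Vpreb3 at 3438 CPM (3406 to 3469). The Dntt bin held 69.0% of the library's Vpreb1 UMIs, 64.9% of those of Vpreb2 and 64.2% of those of Igll1, but 19.3% of those of Vpreb3. Of Dntt cells, 63.5% had 5 or more UMIs of Vpreb1 and 62.2% of Igll1, against 0% of NK cells for both.

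Within the Dntt bin the non-cycling cells were higher. Vpreb1 had 1442 CPM in 376 Mki67-positive cells against 3186 CPM in 800 Mki67-negative cells. Vpreb2 had 137 against 318 CPM, Igll1 954 against 1935 CPM and Vpreb3 2384 against 4747 CPM, in Mki67-positive against Mki67-negative cells. All 4 members thus had lower levels in the cycling cells, as VPREB1 and VPREB3 did in both macaque channels. The genes that chose the B cells were also lower there: summed, they had 5948 CPM in mouse Mki67-positive against 11597 CPM in Mki67-negative Dntt cells, and in macaque 1424 and 1430 CPM in MKI67-positive against 2589 and 2011 CPM in MKI67-negative DNTT cells. Median depth was 16285 UMIs in mouse Mki67-positive against 6476.5 in Mki67-negative Dntt cells, and the part of depth in these differences was not tested.

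The mouse VpreB and Igll1 levels were far lower in each bin other than Dntt. Vpreb1 had 295 CPM in Rag1 cycling cells, 151 CPM in Rag1 Ms4a1-negative cells, 145 CPM in Rag1 Ms4a1-positive cells and 36.6 CPM in Ms4a1-only cells. Igll1 had 227, 96.5, 88.2 and 19.2 CPM in the same 4 bins, and Vpreb2 42.1, 23.3, 23.7 and 5.44 CPM. Mki67 cells without Dntt and Rag1 UMIs had 272 CPM of Vpreb1 both without and with Ms4a1, and 235 and 261 CPM of Igll1. Among Mki67 Ms4a1-negative cells 27.1% had 5 or more Vpreb1 UMIs, beside 2.80% of Rag1 Ms4a1-negative cells; their median depths were 16520.5 and 5162 UMIs per cell.

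The ratio of the Dntt bin to Ms4a1-only cells was 60.6 for Vpreb1, a log2 value of 5.92 (5.81 to 6.04). It was 40.1 for Vpreb2 (log2 5.32) and 72.6 for Igll1 (log2 6.18), but 1.62 for Vpreb3 (log2 0.70). Rag1 Ms4a1-negative cells over Ms4a1-only cells gave log2 ratios of 2.04 for Vpreb1, 2.10 for Vpreb2, 2.33 for Igll1 and 0.92 for Vpreb3. Mouse Vpreb1 and macaque VPREB1 thus had log2 values of 5.92 and 5.97 in the bin marked by DNTT, while Vpreb3 and VPREB3 had 0.70 and 3.02. The mouse values depend on the cut: they were higher with bins cut at 2 UMIs, and single Dntt UMIs need not mark pro-B cells, since Dntt UMIs also occurred in mouse NK cells. Species, age and depth differ between these libraries. The measures differ too: the mouse values are ratios of summed CPM and the macaque values are fold changes from the edgeR fit. The values are set side by side with no test.

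Mouse NK cells gave a background that the later bins should be read against. It was 11.6 CPM for Vpreb1, 1.28 CPM for Vpreb2, 9.28 CPM for Igll1 and 53.2 CPM for Vpreb3, with at most 3, 2, 4 and 7 UMIs in any cell. Vpreb1 in Ms4a1-only cells, at 36.6 CPM, was above it. The 18 Rgs13 cycling cells had 11.1 CPM on 3 UMIs, too few to place them against it. Among Rgs13 non-cycling cells, 6 were Vpreb1-positive, with 18 UMIs. The mouse Rgs13 bins, which leave out cells with Dntt or Rag1 UMIs, held only 84 cells. Vpreb3 stood there at 624 CPM in cycling and 605 CPM in non-cycling cells. Vpreb3 was high in every other mouse B bin, from 1372 CPM in Mki67 Ms4a1-positive cells to 4017 CPM in Rag1 Ms4a1-negative cells. It had 5 or more UMIs in 98.1% of Rag1 Ms4a1-negative cells, 65.8% of Ms4a1-only cells and 0.184% of NK cells. Erythroid genes were at 2552 CPM in Rag1 Ms4a1-negative cells and 3030 CPM in Rag1 Ms4a1-positive cells, against 41.1 CPM in Dntt cells and 67.8 CPM in Ms4a1-only cells, and their part in the levels of the bins was not tested.

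**Figure D3:**
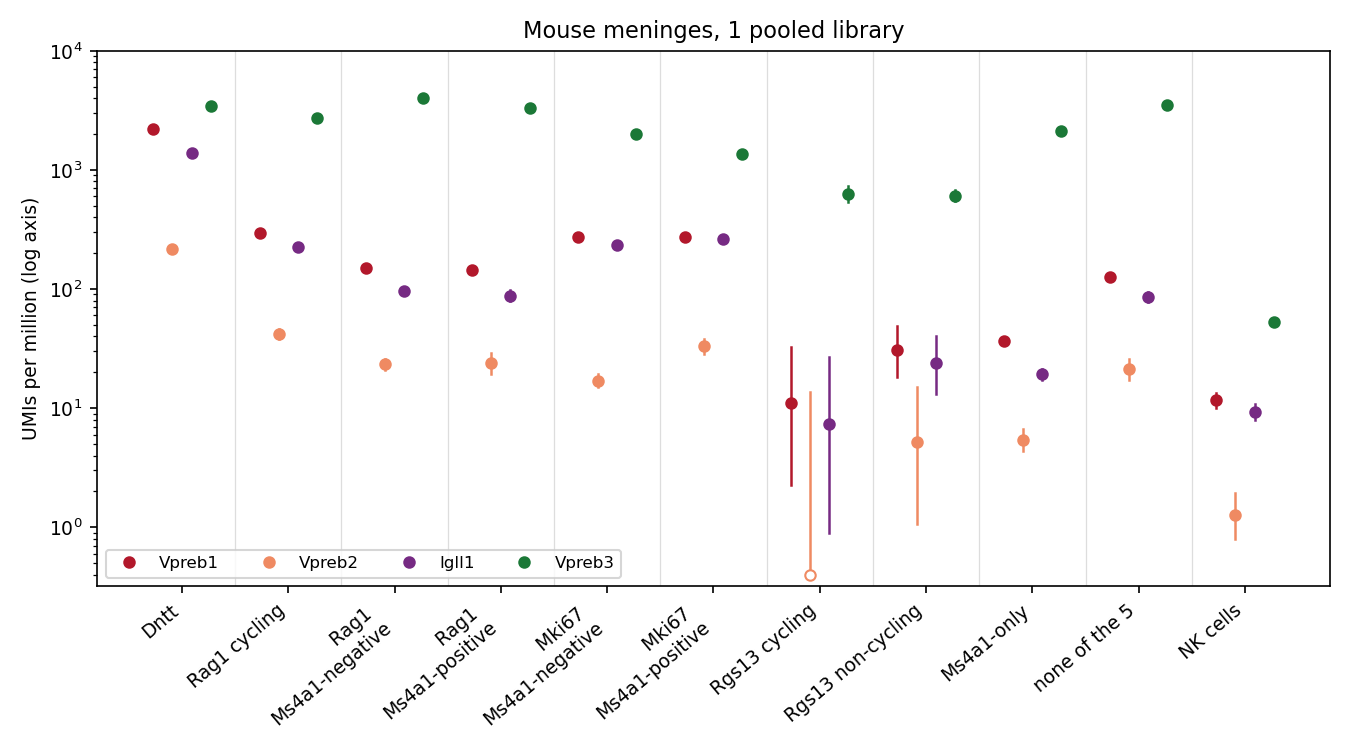
Levels of Vpreb1, Vpreb2, Igll1 and Vpreb3 (CPM, log axis) in each bin of the mouse library and in its NK background, with exact 95% Poisson intervals that cover counting error only; an open symbol at the lower edge stands for 0 UMIs. The VpreB genes and Igll1 are at 2220, 218 and 1392 CPM in Dntt cells and at 36.6, 5.44 and 19.2 CPM in Ms4a1-only cells, while Vpreb3 is at 3438 CPM in Dntt cells and 2117 CPM in Ms4a1-only cells.

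Cells were also grouped by the UMIs of a single stage gene, and the order of the levels depended on the gene, the member and the species. Mouse B cells with 0, 1, 2 to 3 and 4 or more Dntt UMIs held 178, 435, 1787 and 3369 CPM of Vpreb1 and 139, 320, 1152 and 2079 CPM of Igll1. Dntt UMIs were also found in 4.79% of NK cells, and in 11.8% of B cells. Vpreb3 had 2619, 2504, 3001 and 4068 CPM over the same 4 classes, with no step up at 1 UMI. With Rag1 UMIs in the same classes Vpreb1 stood at 232, 385, 621 and 1379 CPM and Vpreb3 at 2090, 3176, 3578 and 3914 CPM.

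In macaque meninges levels were higher at 1 UMI of DNTT or RAG1 than at 0, and VPREB1 did not climb steadily over the positive classes in either channel. VPREB1 over 0, 1, 2 to 3 and 4 or more DNTT UMIs stood at 67.9, 990, 1202 and 836 CPM in channel 1 and at 51.9, 1291, 807 and 780 CPM in channel 2, with 2 to 4 cells in each of the middle classes. Over RAG1 UMIs VPREB1 stood at 60.1, 436, 216 and 556 CPM in channel 1 and at 46.4, 475, 429 and 482 CPM in channel 2. VPREB3 over RAG1 UMIs stood at 205, 875, 843 and 738 CPM in channel 1 and at 193, 1072, 1005 and 616 CPM in channel 2, so among RAG1-positive cells its level was lower with more RAG1 UMIs in both channels.

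With Ms4a1 UMIs the levels of mouse Vpreb1 and Igll1 were lower. Over 0, 1, 2 to 3 and 4 or more Ms4a1 UMIs, Vpreb1 stood at 684, 487, 208 and 57.5 CPM and Igll1 at 452, 366, 161 and 41.5 CPM. In macaque meninges VPREB1 stood at 269, 92.3, 54.8 and 14.6 CPM in channel 1 and 267, 77.7, 77.6 and 9.92 CPM in channel 2 over the same classes of MS4A1. VPREB3 had 588, 320, 279 and 118 CPM in channel 1 and 599, 421, 288 and 117 CPM in channel 2. Levels of both macaque genes were thus lower with more MS4A1 UMIs in both channels. Mki67 showed no such order for Vpreb1, at 499, 749, 704 and 443 CPM, and in macaque the 2 channels differed in order, at 53.2, 140, 140 and 253 CPM in channel 1 and 56.2, 38.8, 323 and 195 CPM in channel 2. Rgs13 UMIs went with low levels in mouse: 503 CPM of Vpreb1 in cells without one, and 33.1, 6.48 and 14.3 CPM in the 71, 26 and 9 cells with 1, 2 to 3 and 4 or more. In spleen VPREB3 was higher with RGS13 UMIs, at 85.8, 147, 154 and 163 CPM in channel 1 and 84.8, 169, 158 and 298 CPM in channel 2 over 0, 1, 2 to 3 and 4 or more. VPREB1 of spleen stood at 4.59, 14.2, 9.96 and 2.01 CPM in channel 1 and 3.72, 14.3, 13.3 and 5.06 CPM in channel 2, with 1 UMI per channel in the last class.

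**Figure D4:**
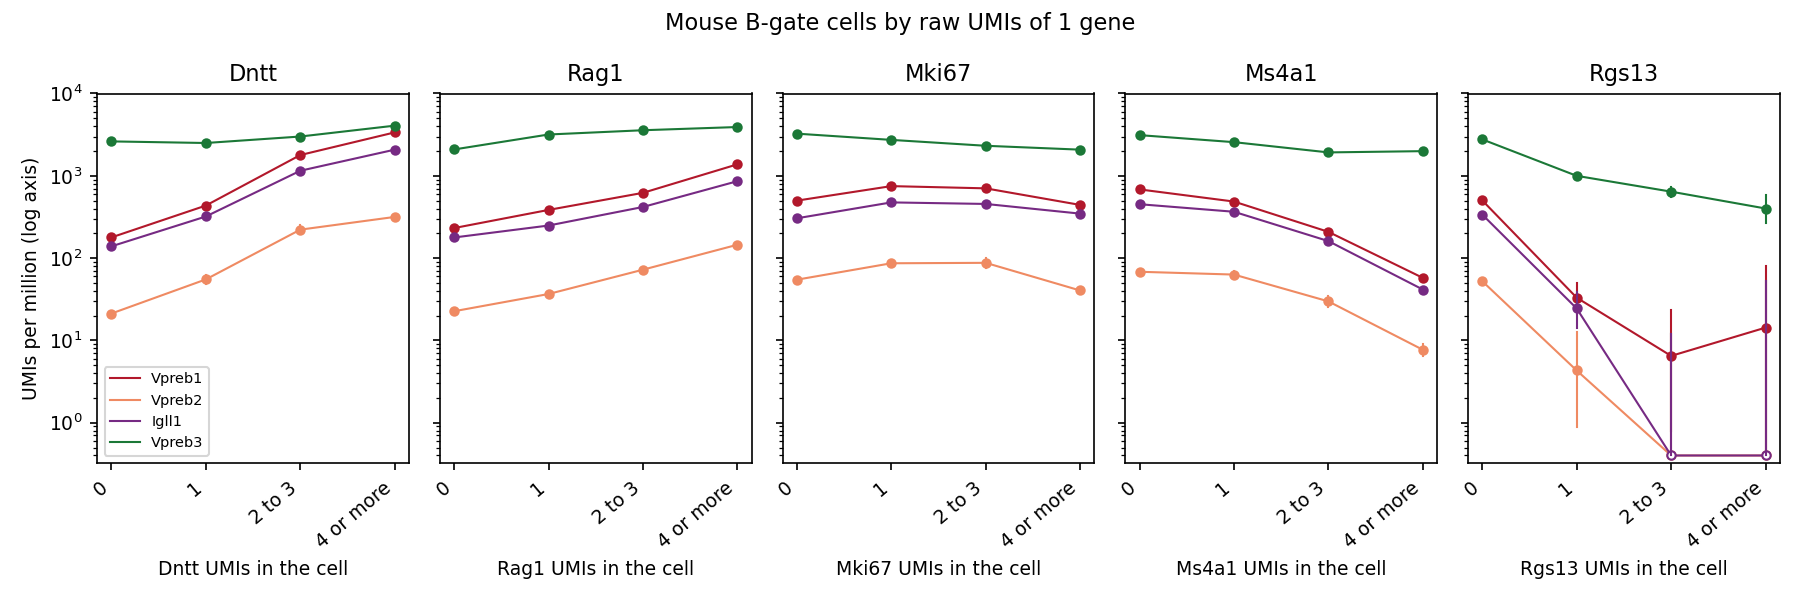
Levels of the mouse members (CPM, log axis) in B cells grouped by 0, 1, 2 to 3 and 4 or more UMIs of each of the 5 stage genes, with exact 95% Poisson intervals; an open symbol at the lower edge stands for 0 UMIs. Vpreb1 climbs with Dntt UMIs to 3369 CPM and drops with Ms4a1 UMIs to 57.5 CPM.

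To compare how often members were found in the same cell, each cell was thinned to 1000 UMIs. In the mouse Dntt bin 588 of 1175 cells (50.0%, 47.1 to 52.9) had both Vpreb1 and Igll1, the partner chains of the surrogate light chain. Independent detection at the same shares would give 32.0%. The bin was uneven, however. Vpreb1 was seen in 13.8% of thinned cells in the lowest Dntt-positive class and in 92.3% in the highest. For Igll1 the shares were 11.0 and 85.6%. Dntt UMIs were also found in 4.79% of NK cells. A mixture of unlike cells can by itself put the joint share above the product, and its part was not tested. In this bin 84.1% of Vpreb1-positive cells had Igll1 and 93.0% of Igll1-positive cells had Vpreb1. Among Dntt cells the pair was seen in 160 of 376 Mki67-positive cells (42.6%), against 428 of 799 Mki67-negative cells (53.6%).

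Outside the Dntt bin the pair was rare in the thinned cells. Thinning removed most UMIs of Mki67 Ms4a1-negative cells, whose median depth was 16520.5 UMIs. Before thinning, 370 of these 694 cells had Vpreb1 and 358 had Igll1. The numbers were 266 and 226 of 820 Rag1 cycling cells, and 301 and 175 of 2814 Ms4a1-only cells. How often these unthinned cells had both is not reported here, so the shares below hold for thinned cells only. After thinning, both were seen in 40 of 820 Rag1 cycling cells (4.88%), 57 of 2462 Rag1 Ms4a1-negative cells (2.32%), 31 of 693 Mki67 Ms4a1-negative cells (4.47%) and 5 of 2812 Ms4a1-only cells (0.178%). No cell of the 84 in the Rgs13 bins had both, which allows up to 3.57%. No NK cell of 1630 did either, which allows a share of up to 0.184% by the limit of 3 counts. Vpreb2 was seen almost wholly within Vpreb1-positive cells: 96.3% of Vpreb2-positive Dntt cells had Vpreb1, and 29.6% of Vpreb1-positive ones had Vpreb2, with the shared sequence of the pair as a limit. Vpreb3 was present in 96.3% of Vpreb1-positive Dntt cells, beside 89.8% of all Dntt cells.

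In macaque meninges VPREB1 and VPREB3 were seen together in 71 of 1870 B cells (3.80%) of channel 1 and 76 of 1956 (3.89%) of channel 2, against 2 of 3341 (0.0599%) and 2 of 4548 (0.044%) in spleen. The meninges shares were 2.63 and 2.83 times the product of the single shares. Of VPREB1-positive B cells of meninges, 53.8 and 58.9% had VPREB3, while 18.6 and 18.7% of VPREB3-positive ones had VPREB1. Depth was equal after thinning, and 1870 and 1956 cells of meninges and 3341 and 4548 cells of spleen were deep enough to enter.

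By bin, both genes were found in 8 of 19 and 16 of 30 DNTT cells (42.1 and 53.3%), in 14 of 139 and 18 of 123 RAG1 MS4A1-negative cells (10.1 and 14.6%) and in 10 of 1319 and 12 of 1425 MS4A1-only cells (0.758 and 0.842%). Within DNTT and RAG1 MS4A1-negative cells the joint share was 0.987 to 1.19 times the product of the single shares, so inside these bins co-detection was close to what the single shares give. In MS4A1-only cells it was 3.40 and 4.07 times the product, on 10 and 12 cells. No cell of the RGS13 bins had both, of 44 and 42 in meninges and of 418 and 462 in spleen. This allows up to 6.82 and 7.14% in meninges and 0.718 and 0.649% in spleen. No NK cell had both either, of 1345 and 1396 in meninges and of 312 and 453 in spleen, which allows at most 0.962%.

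**Figure D5:**
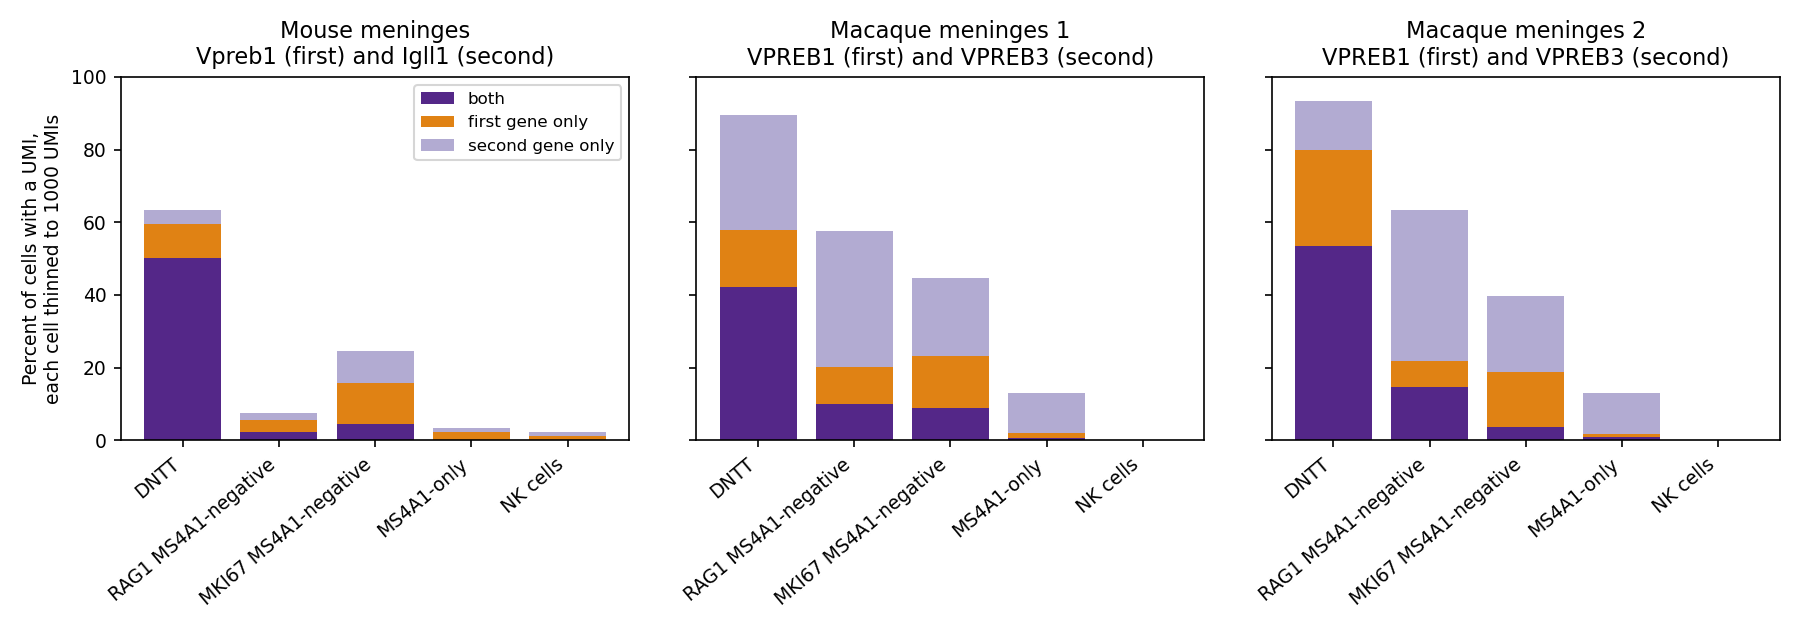
Shares of cells (percent, stacked) with both genes of a pair, with the first gene alone and with the second alone, after thinning every cell to 1000 UMIs: VPREB1 with VPREB3 in macaque and Vpreb1 with Igll1 in mouse. The share with both is 42.1 and 53.3% in macaque DNTT cells and 50.0% in mouse Dntt cells, and 0.758, 0.842 and 0.178% in MS4A1-only cells of the same libraries.

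Of the 4 listed partners of the surrogate light chain in the pre-B cell receptor (IGLL1, IGHM, CD79A and CD79B), the macaque fits tested IGHM and CD79B, the others not being listed in the macaque tables. IGHM, the µ heavy chain, had 6623 and 6648 CPM in RAG1 MS4A1-negative cells of meninges against 2552 and 2666 CPM in MS4A1-only cells, a rise of 1.07 (SE 0.27; edgeR adjusted p = 0.0024). The DNTT cells, where VPREB1 was highest, held 356 and 436 CPM of IGHM, and the NK background was 58.0 and 156 CPM. CD79B rose by 1.02 (SE 0.15; edgeR adjusted p = 3.3e-06), at 3018 and 3253 CPM in RAG1 MS4A1-negative cells against 1308 and 1252 CPM in MS4A1-only cells. Both partners were thus called higher in RAG1 MS4A1-negative cells, where VPREB1 was also high and 15.3% of genes were called higher. Against MS4A1-only cells, 0 partners were called higher and 1 lower in DNTT cells, where 12.5% of genes were called lower. The partner counts were the same in MKI67 MS4A1-negative cells, where 2142 of 8693 genes were called lower. Relative to DNTT cells, RAG1 MS4A1-negative cells also had both partners called higher (10.1% of genes were), while VPREB1 was lower. In mouse, Ighm had 2941 CPM in Dntt cells, 6978 CPM in Rag1 Ms4a1-negative cells and 6802 CPM in Ms4a1-only cells, with an NK background of 249 CPM.

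Of the 15 listed genes that relay the signal of the pre-B cell receptor, 7 were called higher and 6 lower in RAG1 MS4A1-negative cells against MS4A1-only cells, with a median of 0.35 beside -0.05 over all genes. Of all genes in this comparison, 15.3% were called higher and 17.1% lower. The largest rises were in FYN, a Src-family kinase (2.49, SE 0.26; edgeR adjusted p = 3.0e-09), SYK, the kinase that binds the phosphorylated CD79 chains (1.61, SE 0.14; edgeR adjusted p = 8.3e-11), and PRKCB, a protein kinase C (1.21, SE 0.14; edgeR adjusted p = 1.6e-08). The largest falls were in the adaptors SH2B2 (-1.64, SE 0.52; edgeR adjusted p = 0.015) and GRB2 (-1.58, SE 0.16; edgeR adjusted p = 1.3e-09) and in PTPN6, a phosphatase that restrains antigen receptor signals (-1.38, SE 0.16; edgeR adjusted p = 4.6e-08). The list as a whole therefore moved in both directions. In DNTT cells 2 of the 15 were called higher and 9 lower, with a median of -1.54 beside -0.06 over all genes in that fit, of which 14% were called higher and 12.5% lower.

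Of 16 tested B-lineage transcription factors of a list of 18, 11 were called higher and 1 lower in RAG1 MS4A1-negative cells, with a median of 1.08, beside 15.3% of all genes called higher and 17.1% lower. MYB, a factor of progenitor cells, rose by 4.65 (SE 0.25; edgeR adjusted p = 5.5e-15), LEF1, a factor of the Wnt pathway active in early B cells, by 3.41 (SE 0.26; edgeR adjusted p = 1.3e-11) and BACH2, a repressor of the plasma cell programme, by 2.91 (SE 0.17; edgeR adjusted p = 1.1e-14). IRF8, the 1 that fell, had -4.99 (SE 0.34; edgeR adjusted p = 2.7e-13). Of 9 tested recombination genes of a list of 10, 3 were called higher and 1 lower, beside the same 15.3 and 17.1% of all genes. RAG1, 1 of the 3, was higher by construction. RAG2, its partner, rose by 7.20 (SE 0.41; edgeR adjusted p = 2.8e-13), LIG4, a DNA ligase of end joining, by 1.91 (SE 0.31; edgeR adjusted p = 9.7e-06), and PRKDC, the DNA-dependent protein kinase, was lower at -0.61 (SE 0.19; edgeR adjusted p = 0.012). CD79B, BLNK, PAX5 and EBF1 belong to these lists and also to the genes that chose the B cells.

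The genes whose levels ran most like the members' over bins were named by Pearson's r of log2 CPM, as a description. Over 24 macaque sums of bin and channel and 3861 genes, VPREB1 was closest to PRR5 and CXCR4 (both 0.88), TMEM123 (0.87), TOP2B, CUX1 and SMARCD1 (all 0.86), and SOX4 and SPRING1 (both 0.85). VPREB3 was closest to TMEM123 (0.95), PRR5 (0.94), VEZF1 (0.91), H1FX and DAZAP1 (both 0.90), CCNG2 (0.89), YEATS2 (0.88) and EIF1B (0.86). VPREB1 and VPREB3 themselves had 0.85. The sums of 1 channel share a library and its depth.

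Over the 10 mouse bins, which all share 1 library, and 4141 genes, Plscr3 was the closest gene to Vpreb1 (0.99), Vpreb2 (0.95) and Igll1 (0.99). Lef1, Casp8 and Tomm34 were among the 8 closest genes of all 3, with 0.93, 0.93 and 0.92 for Vpreb1. Further genes were, for Vpreb1, Atp1b3 (0.92), Ppp1cb (0.91), Mllt10 and Rrs1 (both 0.90), for Vpreb2 Ppp2r1a, AU020206 and Ppp1r14b (0.90 to 0.92), and for Igll1 Atp1b3, Sfr1, Pcbp1 and Rrs1 (0.90 to 0.93). Vpreb3 was closest to Git2 (0.98), Lypla1, Fam193b, Sfswap, Cxxc5, Chchd10, Bcl7a and Ptp4a3 (0.96 to 0.97). Among the members, Vpreb1 had 0.99 with Igll1, 0.97 with Vpreb2 and 0.65 with Vpreb3.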

How the data were processed

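The deposited tables are matrices of raw UMI counts. Per the submitters' processing notes the authors ran Cell Ranger and name the build mm10; a macaque reference was not given in the sources used here. Macaque tables list genes seen in at least 3 cells; an unlisted gene was counted as 0. The members and gene lists were chosen with earlier results of these data known. Cells below 300 detected genes or above 10% mitochondrial UMIs were dropped (Python 3.11.15, scanpy 1.11.5). Scrublet removed 173 mouse cells and 39 from each meninges channel; it marked none in spleen, which was read as a failure, so spleen kept its cells. Counts were summed per channel and bin and tested by quasi-likelihood in edgeR 4.0.16 (R 4.3.3), after filterByExpr and TMM scaling, with Benjamini-Hochberg adjustment across every gene tested and a threshold of 0.05. Tissues were compared without a replicate block; bins were compared in 1 fit over bins of at least 20 cells with the channel as a block. A positive fold change means higher in the group named first. Named genes are all members, the 3 largest called rises and falls per list in RAG1 MS4A1-negative cells, and the 8 most similar genes per member among those whose log2 CPM averages at least 5. Alternatives were DESeq2 1.42.0, its size factors, no count filter, no doublet removal, stricter cell filters, another B gate, bins at 2 UMIs, thinning to 2000 UMIs, both blocks and each channel left out. The tests were checked on simulated data. Sequences were read from GENCODE M21 on GRCm38 and aligned with Biopython 1.88. Some genes that the naming rule gives are not reported here.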

Additional observations from a re-analysis of the deposited data

How the results depend on the processing

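Over 26 results of VPREB1 and VPREB3 and 316 alternatives, 296 kept direction and side of the threshold, 10 passed it newly, 7 no longer passed it and 3 changed sign; causes were not tested. Leaving out 1 channel gave VPREB3 values of -0.56 to 0.48 between tissues in RGS13 B cells (-0.02 without spleen channel 1), -0.068 to 1.08 in RGS13 non-cycling cells of meninges, 0.32 to 0.43 in RGS13 cycling cells of spleen, 1.36 to 2.18 in RAG1 MS4A1-positive cells and -0.76 to -0.26 for RAG1 MS4A1-negative against DNTT cells. VPREB3 in RGS13 non-cycling cells of meninges passed the threshold with DESeq2 (0.65), its size factors (0.65) and no doublet removal (0.64), and for RAG1 MS4A1-negative against DNTT cells with DESeq2 (-0.56), size factors (-0.56), no count filter, no doublet removal and a B gate of 4 UMIs (each -0.53). In RGS13 cycling cells of spleen VPREB3 missed it with DESeq2 (0.35), bins of at least 10 cells (0.28) and no doublet removal (0.31), and VPREB1 with bins cut at 2 UMIs (1.30). That cut moved the mouse log2 ratios of Dntt over Ms4a1-only cells to 6.45 for Vpreb1, 5.79 for Vpreb2, 6.70 for Igll1 and 0.91 for Vpreb3. It left too few RGS13 cells of meninges for a value there or for the interaction, and VPREB1 was filtered out of RGS13 B cells without either spleen channel.

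Shares of B cells at 2000 UMIs and unthinned were 10.3 and 14.1% for VPREB1, 29.5 and 39.4% for VPREB3 and 7.57 and 12.3% for both in meninges, and 0.932 and 1.49%, 15.9 and 20.3%, and 0.122 and 0.653% in spleen; for Vpreb1 with Igll1 in Dntt cells they were 60.0 and 65.4%.

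Same-numbered channels did not deviate together (correlations of -0.173 to 0.0127). With 1 deviation per tissue this cannot show whether they share an animal or a batch. With the replicate block VPREB1 and VPREB3 kept 3.85 and 1.35 in B cells and no member call changed; called genes were 7110 for 7235 without it in all cells, 5282 for 5281 in B cells, 4515 for 4288 in MS4A1-only cells and 26 for 43 in RGS13 B cells. The crossed pairing called 7685, 5828, 4663 and 104 genes. Counts of called genes moved by over 1.5 times as follows: B cells 3060 without spleen channel 2; MS4A1-only cells 2655 with DESeq2; RGS13 B cells 210 with no filter and 253, 263 and 77 without meninges channel 1, meninges channel 2 and spleen channel 1; RAG1 MS4A1-negative cells 1790 (for 2812) without meninges channel 1; RGS13 non-cycling cells of meninges 684 and 610 (for 1220) without either meninges channel; RGS13 non-cycling cells of spleen 1549 and 1769 (for 3479) and cycling cells 2526 and 2968 (for 4555) without either spleen channel; DNTT cells 1046 (for 2061) without meninges channel 2; RAG1 MS4A1-positive cells 250 and 177 (for 441) and RAG1 MS4A1-negative against DNTT cells 1116 and 745 (for 1713) without either meninges channel; and the interaction 185 (for 94) with no filter and 21 and 20 without spleen channels 1 and 2. The macaque DNTT, RAG1 cycling and RAG1 MS4A1-positive bins of 6 to 30 cells set the precision of the early stages.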

Other observations

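Some mouse cells carried a Dntt UMI but passed neither the B cell nor the NK cell rule. These 295 cells had 7.34 CPM of Vpreb1 and 5.56 CPM of Igll1, with at most 2 Vpreb1 UMIs in a cell, against 11.6 CPM of Vpreb1 and 9.28 CPM of Igll1 in NK cells. Both values were under those of NK cells, a step that was not set against counting error. They were far under the 2220 and 1392 CPM of Dntt-positive B cells.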
